A study of Mus musculus with 18 samples.

Results

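The genes described here were taken as markers of the nerve tissue of the gut wall. They are 3 genes of enteric glia (S100b, Sox10 and Gfap) and 5 genes of enteric neurons (Elavl4, Uchl1, Ret, Nos1 and Vip), chosen by name and found through their gene identifiers, and they make up 8 of the 47729 genes in the count table. The enteric nervous system lies in ganglia between the muscle layers and beneath the mucosa, where neurons of several transmitter classes are wrapped by glia. Both cell types arise from neural crest cells that enter the embryonic gut and depend on the receptor RET and its ligand GDNF. In the adult colon these neurons drive peristalsis, relax the muscle through nitric oxide and the peptide VIP, and act on secretion and blood flow.

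RNA from mouse colon was sequenced in 9 libraries, 3 in each of 3 groups, and each library was run on 2 lanes whose counts were summed. The study asked how raised claudin-2, a protein of epithelial tight junctions, bears on colitis-associated colon cancer. Control WT mice (R1, R2 and R3) are labelled as controls. AOM-DSS WT mice (R4, R5 and R6) were wild-type mice given 1 dose of the carcinogen azoxymethane (AOM, 10 mg/kg) and 3 cycles of 2.5% dextran sulfate sodium (DSS), which injures the colon lining. AOM-DSS Claudin-2TG mice (R7, R8 and R9) received that treatment and carried a Cldn2 transgene under the villin promoter, which is active in the intestinal epithelium. The mice had a C57BL/6 background. The study's methods describe littermate controls matched for age and sex, and give no age. The labels place the treatment text under the control samples as well, so the controls were taken from the treatment label. No untreated Claudin-2TG group was sequenced, so genotype and treatment cannot be told apart in the comparison of AOM-DSS Claudin-2TG with Control WT, and the effect of treatment could not be compared between genotypes.

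Library totals ran from 14142711 counts in R6 to 22262546 in R5. A level is given as CPM, a gene's counts in each 1000000 counts of its library after TMM scaling, which corrects library totals for differences in composition. By counting error only, a count of 0 in 1 library would allow up to 3 counts, which is 0.1348 to 0.2121 CPM of the library totals before TMM scaling. R1 held 214 CPM of Xist, and the other 8 libraries held at most 0.203 CPM. The controls therefore differ in sex from each other. Cldn2 itself stood at 191, 259 and 245 CPM in the controls, 119, 137 and 132 CPM in AOM-DSS WT, and 208, 218 and 251 CPM in AOM-DSS Claudin-2TG. The transgenic group was thus above AOM-DSS WT in each library but overlapped the controls. Counts per gene do not separate transgene RNA from that of the mouse gene.

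**Figure D1:**
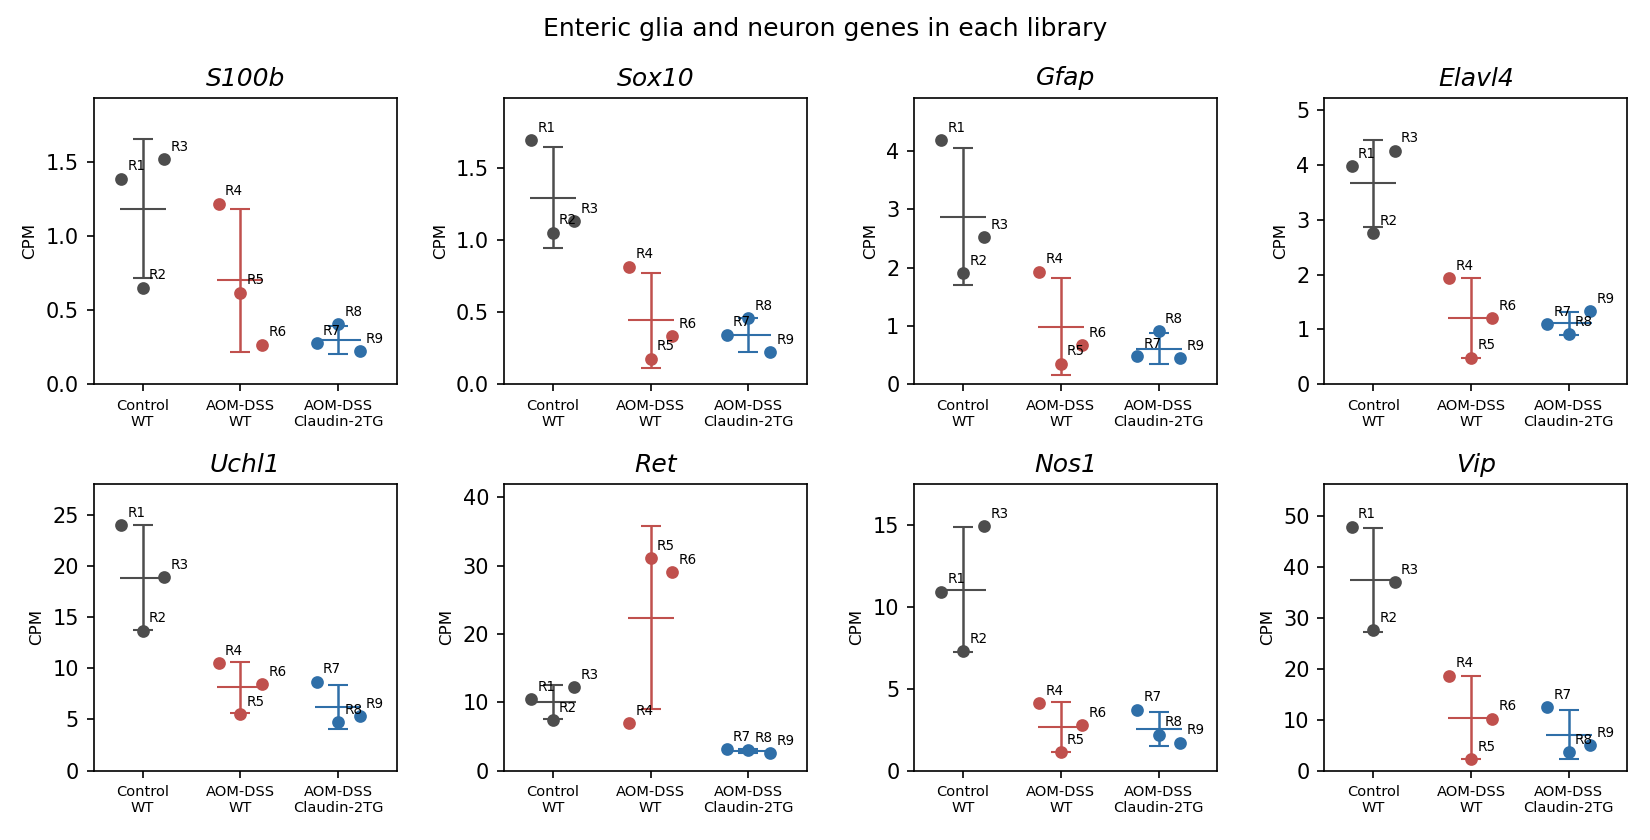
Level in CPM (vertical axis, starting at 0) of each of the 8 genes in the 9 libraries, by group, where points are libraries and bars show the mean and SD of 3 libraries. All 8 genes are lower in each AOM-DSS Claudin-2TG library than in each control, and Ret alone is high in R5 and R6.

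Gene models are those of the count table on GRCm38. S100b (ENSMUSG00000033208) lies on chromosome 10 from 76253853 to 76261159, Sox10 (ENSMUSG00000033006) on chromosome 15 from 79154913 to 79164490, and Gfap (ENSMUSG00000020932) on chromosome 11 from 102887336 to 102900912. Elavl4 (ENSMUSG00000028546) lies on chromosome 4 from 110203722 to 110351909, and Uchl1 (ENSMUSG00000029223) on chromosome 5 from 66676091 to 66687234. Ret (ENSMUSG00000030110) lies on chromosome 6 from 118151745 to 118197718, Nos1 (ENSMUSG00000029361) on chromosome 5 from 117781032 to 117958840, and Vip (ENSMUSG00000019772) on chromosome 10 from 5639218 to 5647614. The 8 genes lie on 6 chromosomes. Exons of Uchl1 overlap the antisense gene Uchl1os over 295 bases, 18.1% of the Uchl1 exons, and exons of Nos1 overlap the antisense gene Gm26995 over 268 bases, 2.4% of the Nos1 exons. Both antisense genes stood at 0 CPM. The other 6 genes share no exon base with another gene of the table.

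The 8 genes were ranked by level per kilobase of exon. In the controls Vip led with 24.5 ± 6.69 CPM per kb (mean ± SD, n = 3), ahead of Uchl1 with 11.6 ± 3.16 CPM per kb and Ret with 1.48 ± 0.362 CPM per kb. Nos1 (0.989 ± 0.342), S100b (0.801 ± 0.316), Elavl4 (0.681 ± 0.148), Gfap (0.68 ± 0.279) and Sox10 (0.476 ± 0.128 CPM per kb) followed. The steps from Vip to Uchl1 and from Uchl1 to Ret were free of overlap between libraries, whereas from Ret downwards each gene overlapped the next. In AOM-DSS WT the per-kilobase order began with Vip (6.79), Uchl1 (5.0) and Ret (3.31 CPM per kb), which overlapped each other, and Ret stood clear of the next gene, S100b (0.473 CPM per kb). Below it Nos1 (0.238), Gfap (0.233), Elavl4 (0.224) and Sox10 (0.163 CPM per kb) overlapped from neighbour to neighbour. In AOM-DSS Claudin-2TG, Vip (4.59) and Uchl1 (3.82 CPM per kb) overlapped, Ret (0.431 CPM per kb) stood apart from both its neighbours, and Nos1 (0.227), Elavl4 (0.207), S100b (0.203), Gfap (0.145) and Sox10 (0.126 CPM per kb) overlapped in turn. Ret thus stood beside Uchl1 in R5 and R6, and far below it in R4 (1.03 against 6.44 CPM per kb) and in the other 2 groups.

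The 3 groups were compared in pairs on the whole count table by edgeR's quasi-likelihood test, with p-values adjusted by Benjamini-Hochberg over all genes tested. Only genes that passed edgeR's filter on low counts were tested, and a gene is called when its adjusted p is under 0.05. In AOM-DSS WT against Control WT all 8 genes were tested, 2 were called lower (Uchl1 and Nos1) and none was called higher. Over the 15437 genes tested in that comparison, 6.92% were called lower and 8.04% higher. The 3 AOM-DSS WT libraries lay below all 3 controls for 5 of the 8 genes (Sox10, Elavl4, Uchl1, Nos1 and Vip), against 20.3% of all genes tested. The median log2 fold change was -1.51 for the 8 genes and 0.02 for all genes tested. At an unadjusted p under 0.05, 6 of the 8 passed in edgeR, against 32.6% of all genes tested, and DESeq2 called 4 of the 8 (Elavl4, Uchl1 and Nos1 lower and Ret higher). The edgeR count of 2 rested on single libraries. It was 0 without R1, R2, R3 or R6, and 1 without R5 (Nos1). Without R4 it was 7, namely Ret higher and 6 others lower, S100b being the exception, while the calls over all genes tested rose from 2310 to 4080.

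In AOM-DSS Claudin-2TG against Control WT all 8 genes were tested and all 8 were called lower. Over the 15013 genes tested, 6.07% were called lower and 3.92% higher. Each of the 8 genes was lower in all 3 transgenic libraries than in all 3 controls, against 16.3% of the genes tested. All 8 also passed an unadjusted p under 0.05 in edgeR, against 26% of the genes tested. The median log2 fold change was -1.88 for the 8 genes and 0.0 for all genes tested. For each of the 8 the exact two-sided permutation p was 0.1, the smallest that 3 libraries against 3 allow. Leaving out R1, R3 or R9 took the count to 5, while it was 6 without R8 and 7 without R2 or R7. Elavl4, Gfap, Nos1, Ret and Uchl1 were called whichever of the 6 libraries was left out. When all 9 libraries entered 1 fit with 3 groups, 2 of the 8 were called (Nos1 and Uchl1). Scaling by library totals alone moved the median of all genes by -0.11 on the log2 scale in this comparison, and the 8 genes were below 0 under each alternative that gave them a value. Mitochondrial genes held 3.114, 3.498 and 2.86% of the counts in the controls, 4.691, 3.537 and 4.489% in AOM-DSS WT, and 5.043, 4.575 and 5.758% in AOM-DSS Claudin-2TG, so that every treated library was above every control. The part of this difference in the levels of the 8 genes was not tested.

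In AOM-DSS Claudin-2TG against AOM-DSS WT 6 of the 8 genes were tested, since S100b and Sox10 had too few counts. Ret was called lower and no gene was called higher. Over the 14888 genes tested, 7.35% were called lower and 2.19% higher, and the median log2 fold change was -0.5 for the 6 genes and 0.01 for all genes tested. Ret was also the single gene of the 6 at an unadjusted p under 0.05 in edgeR, where 23.5% of all genes tested passed, and DESeq2, which gave values for all 8, called Ret alone. The count was 0 without R5, R7, R8 or R9, and 1 without R4 or R6. The 3 comparisons share libraries with one another, so their values are given side by side and not counted as separate support. In whole tissue, fewer cells of a type and less RNA in each cell cannot be told apart.

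**Figure D2:**
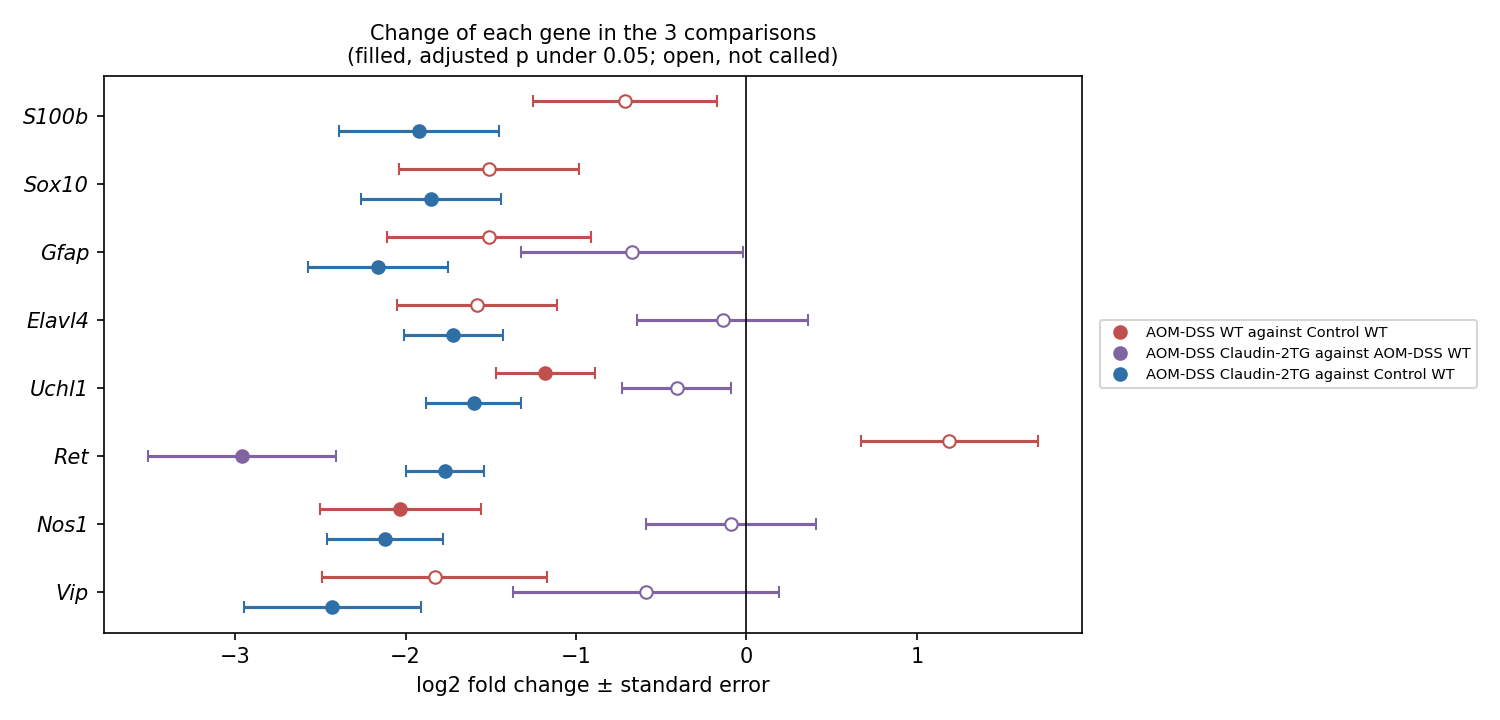
Log2 fold change (horizontal axis) with its standard error for each of the 8 genes in the 3 comparisons of 3 libraries with 3, where filled points passed an adjusted p of 0.05 and open points did not. The S100b and Sox10 genes have no point for AOM-DSS Claudin-2TG against AOM-DSS WT because they were not tested there.

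Among the glial genes, S100b encodes a small calcium-binding protein that is used to stain enteric glia. Its level was 1.39, 0.653 and 1.52 CPM in the controls R1, R2 and R3, 1.22, 0.619 and 0.268 CPM in AOM-DSS WT (R4, R5 and R6), and 0.276, 0.405 and 0.222 CPM in AOM-DSS Claudin-2TG (R7, R8 and R9). R4 sat among the controls and R6 among the transgenic libraries, so AOM-DSS WT overlapped both groups, and the transgenic libraries lay below every control. These levels rest on few reads, 13 to 35 counts in the controls and 3 to 8 in the transgenic libraries. Against Control WT the edgeR log2 fold change was -0.71 (SE 0.54, adjusted p = 0.403) in AOM-DSS WT and -1.92 (SE 0.47, adjusted p = 0.0272) in AOM-DSS Claudin-2TG. The second call stood without R2 (edgeR adjusted p = 0.0137) and ended without R1 (0.0736), R3 (0.112), R7 (0.0626), R8 (0.0685) or R9 (0.0867). Over the alternatives that kept all libraries it was called in 5 of 6, with adjusted p from 0.00187 to 0.0966.

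Sox10 encodes a transcription factor of neural crest cells that mature enteric glia keep and most mature neurons lose. It stood at 1.69, 1.05 and 1.13 CPM in the controls, 0.813, 0.177 and 0.335 CPM in AOM-DSS WT, and 0.344, 0.456 and 0.222 CPM in AOM-DSS Claudin-2TG. Every treated library was below every control, R4 was the highest of the treated, and the 2 treated groups overlapped. No treated library held more than 16 counts. The edgeR log2 fold change against Control WT was -1.51 (SE 0.53, adjusted p = 0.0927) in AOM-DSS WT, and passed only without R4 (-2.35, adjusted p = 0.013). In AOM-DSS Claudin-2TG Sox10 fell by edgeR's test (log2 fold change -1.85, SE 0.41, adjusted p = 0.0194). That call ended without R1 (adjusted p = 0.0636), R3 (0.0503) or R9 (0.065), and the alternatives that kept all libraries gave 5 calls of 6, with edgeR or DESeq2 adjusted p from 0.00176 to 0.087.

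Gfap encodes the intermediate filament of astrocytes, which part of the enteric glia also make. Its level was 4.18, 1.91 and 2.52 CPM in the controls, 1.93, 0.354 and 0.67 CPM in AOM-DSS WT, and 0.482, 0.912 and 0.443 CPM in AOM-DSS Claudin-2TG. R1 was the highest library and R4 was level with the control R2, while R5, R6 and the transgenic libraries were all under 1 CPM. The edgeR log2 fold change was -1.51 (SE 0.6, adjusted p = 0.127) for AOM-DSS WT against Control WT, and passed without R4 alone (-2.51, adjusted p = 0.0107). Against the same controls Gfap fell in AOM-DSS Claudin-2TG by edgeR's test (log2 fold change -2.16, SE 0.41, adjusted p = 0.0102), a level 4.48-fold lower. It was called without each library in turn, R1 included (-1.79, adjusted p = 0.031). In 1 fit of all 9 libraries it was not called, with an adjusted p of 0.0784 at the top of a range from 2.83e-07. The edgeR log2 fold change between the treated groups was -0.67 (SE 0.65, adjusted p = 0.627), and it was 0.34 without R4.

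Of the neuronal genes, Elavl4 encodes HuD, an RNA-binding protein of neurons that is part of the HuC/D stain used to count enteric neurons. It read 3.98, 2.76 and 4.26 CPM in the controls, 1.93, 0.486 and 1.21 CPM in AOM-DSS WT, and 1.1, 0.912 and 1.33 CPM in AOM-DSS Claudin-2TG. All 6 treated libraries were below the lowest control, R5 was the lowest of all, and the treated groups overlapped. For AOM-DSS WT against Control WT the edgeR log2 fold change of -1.58 (SE 0.47) had an adjusted p of 0.0575, just past the threshold, and the 8 alternatives that kept all libraries split evenly, with 4 calls and adjusted p from 0.0111 to 0.0977. Without R4 it was called (-2.15, adjusted p = 0.0118). In AOM-DSS Claudin-2TG Elavl4 fell against Control WT in edgeR's test (log2 fold change -1.72, SE 0.29, adjusted p = 0.00664), and it was called without each library in turn. Its edgeR log2 fold change between the treated groups was -0.14 (SE 0.5, adjusted p = 0.92), 0.43 without R4 and 0.0 without R8.

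Uchl1 encodes PGP9.5, a ubiquitin hydrolase that is abundant in nerve cell bodies and fibres. Its level was 24.0, 13.7 and 18.9 CPM in the controls, 10.5, 5.53 and 8.44 CPM in AOM-DSS WT, and 8.68, 4.71 and 5.32 CPM in AOM-DSS Claudin-2TG. The treated libraries were all below the lowest control, R2, and the 2 treated groups lay over one another. Against Control WT Uchl1 fell in AOM-DSS WT (edgeR log2 fold change -1.18, SE 0.29, adjusted p = 0.0337), to a level 2.27-fold lower. That call stood without R4 (edgeR adjusted p = 0.0125) and ended without R1 (0.103), R2 (0.0697), R3 (0.102), R5 (0.0704) or R6 (0.0799), although all 8 alternatives with all libraries called it. In AOM-DSS Claudin-2TG Uchl1 fell by edgeR's test (log2 fold change -1.6, SE 0.28, adjusted p = 0.01), a level 3.03-fold lower, and the call held without each library in turn and in all 8 alternatives. AOM-DSS Claudin-2TG differed from AOM-DSS WT by an edgeR log2 fold change of -0.41 (SE 0.32, adjusted p = 0.527).

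Ret encodes the receptor tyrosine kinase through which GDNF and neurturin keep enteric neurons alive. It read 10.5, 7.33 and 12.2 CPM in the controls, 6.96, 31.1 and 29.1 CPM in AOM-DSS WT, and 3.17, 2.99 and 2.59 CPM in AOM-DSS Claudin-2TG. R5 and R6 were far above every other library, R4 was just below the lowest control, and the 3 transgenic libraries were the lowest of the 9 and close to one another. Raw counts were 137, 704 and 435 in AOM-DSS WT and 46, 59 and 35 in AOM-DSS Claudin-2TG.

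Compared with AOM-DSS WT, Ret fell in AOM-DSS Claudin-2TG by edgeR's test, with a log2 fold change of -2.96 (SE 0.55, adjusted p = 0.0201) and a level 7.76-fold lower. The groups did not overlap, and the exact two-sided permutation p was 0.1. The call ended without R5 (-2.65, edgeR adjusted p = 0.0536), R7 (-3.0, 0.0852), R8 (-2.96, 0.0977) or R9 (-2.87, 0.0982), and stood without R4 (-3.38, 1.46e-05) or R6 (-2.7, 0.0472). It was made in 7 of 8 alternatives that kept all libraries, and lost with no filter on low counts (edgeR adjusted p = 0.0889, the top of a range from 3.81e-09). Against Control WT Ret was lower in AOM-DSS Claudin-2TG (edgeR log2 fold change -1.77, SE 0.23, adjusted p = 0.00227), and was called without each library in turn. In AOM-DSS WT its edgeR log2 fold change against Control WT was 1.19 (SE 0.52, adjusted p = 0.164), with an exact permutation p of 0.4, and it was called only without R4 (1.61, adjusted p = 0.00172) and in DESeq2 (adjusted p = 0.0391, where the alternatives ran up to 0.401). Ret was thus not called higher in AOM-DSS WT with all libraries in edgeR, and the 2 libraries that were high did not include R4.

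Nos1 encodes the neuronal nitric oxide synthase of inhibitory motor neurons. Its level was 10.9, 7.28 and 14.9 CPM in the controls, 4.11, 1.11 and 2.75 CPM in AOM-DSS WT, and 3.72, 2.18 and 1.7 CPM in AOM-DSS Claudin-2TG. The highest treated library, R4, was well below the lowest control, R2, and the treated groups covered much the same range. Nos1 fell in AOM-DSS WT by edgeR's test (log2 fold change -2.03, SE 0.47, adjusted p = 0.0306), a level 4.09-fold lower. The call stood without R4 (edgeR adjusted p = 0.00841) or R5 (0.0472), ended without R1, R2, R3 or R6 (0.0741 to 0.104), and was made in all 8 alternatives with all libraries. In AOM-DSS Claudin-2TG it fell against Control WT (edgeR log2 fold change -2.12, SE 0.34, adjusted p = 0.00691), a level 4.34-fold lower, and the call held without each library in turn and in all 8 alternatives. The 2 treated groups differed by an edgeR log2 fold change of -0.09 (SE 0.5, adjusted p = 0.952), and leaving out R4, R8 or R9 turned its sign (0.42, 0.02 and 0.14).

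Vip encodes vasoactive intestinal peptide, which relaxes smooth muscle and drives secretion. It read 47.9, 27.5 and 37.0 CPM in the controls, 18.6, 2.26 and 10.2 CPM in AOM-DSS WT, and 12.5, 3.55 and 4.95 CPM in AOM-DSS Claudin-2TG. All treated libraries lay below the lowest control, and both treated groups spread widely, from R5 at the bottom to R4 at the top in one and from R8 to R7 in the other. The edgeR log2 fold change against Control WT was -1.83 (SE 0.66, adjusted p = 0.108) in AOM-DSS WT, and it passed only without R4 (-2.61, adjusted p = 0.0491). In AOM-DSS Claudin-2TG Vip fell by edgeR's test (log2 fold change -2.43, SE 0.52, adjusted p = 0.0464), a level 5.39-fold lower. The call stood without R7 (-3.16, edgeR adjusted p = 0.00224) and ended without R1 (0.0957), R2 (0.0837), R3 (0.154), R8 (0.0712) or R9 (0.143). It was made in 5 of 8 alternatives with all libraries, with adjusted p from 0.00127 to 0.117. From AOM-DSS WT to AOM-DSS Claudin-2TG the edgeR log2 fold change was -0.59 (SE 0.78, adjusted p = 0.748), and 0.17 without R4.

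Ratios within a library set the genes against each other free of scaling. CPM of Vip to CPM of Uchl1 was 2.0, 2.01 and 1.96 in the controls, 1.77, 0.408 and 1.21 in AOM-DSS WT, and 1.44, 0.753 and 0.931 in AOM-DSS Claudin-2TG. The controls were almost equal, and each treated library was below them, R5 most of all. Nos1 to Uchl1 was 0.454, 0.533 and 0.787 in the controls, 0.391, 0.2 and 0.325 in AOM-DSS WT, and 0.429, 0.462 and 0.319 in AOM-DSS Claudin-2TG, so that AOM-DSS WT was below the controls and the transgenic group overlapped them. Ret to Uchl1 was 0.436, 0.537 and 0.642 in the controls, 0.662, 5.63 and 3.45 in AOM-DSS WT, and 0.365, 0.634 and 0.486 in AOM-DSS Claudin-2TG. In this ratio R5 and R6 stood apart, and the transgenic libraries lay within or near the controls. Ret and Uchl1 thus kept nearly the same ratio in the controls and the transgenic group. Gfap to S100b was 3.0, 2.92 and 1.66 in the controls, 1.58, 0.571 and 2.5 in AOM-DSS WT, and 1.75, 2.25 and 2.0 in AOM-DSS Claudin-2TG, with overlap between all groups. The 3 glial genes summed to 0.0838, 0.0707 and 0.0688 of the 4 neuronal genes without Ret in the controls, 0.113, 0.123 and 0.0562 in AOM-DSS WT, and 0.0423, 0.156 and 0.0667 in AOM-DSS Claudin-2TG. Neither treated group was set apart from the controls in this glia to neuron ratio. Both ratios with glial genes rest on few reads, since S100b held 4 counts in R6 and 4, 8 and 3 in R7, R8 and R9.

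Across the 9 libraries, the log2 levels of 7 of the genes ran in parallel. Pearson's r between 1 gene and the mean of the other 7 was 0.965 for Uchl1, 0.937 for Sox10, 0.932 for Gfap, 0.924 for Nos1, 0.911 for Elavl4, 0.908 for Vip and 0.816 for S100b (n = 9). For Ret it was 0.096, so Ret did not follow the others, and the cells that made Ret RNA were not determined. These points share group differences, and with group means taken out r ran from 0.527 for S100b to 0.865 for Nos1, and was -0.61 for Ret. The 5 genes most like the mean profile of the 8, among 13910 genes with a mean of at least 1 CPM, were Sst (r = 0.991), Tubb3 (0.99), Sncg (0.984), Mab21l2 (0.984) and Pcsk2 (0.983). Their r with group means taken out was 0.955, 0.958, 0.935, 0.974 and 0.927. Sst, the peptide somatostatin, read 14.7, 10.2 and 13.8 CPM in the controls, 9.09, 3.76 and 5.22 CPM in AOM-DSS WT, and 4.34, 4.21 and 3.99 CPM in AOM-DSS Claudin-2TG. Tubb3, the neuronal beta-tubulin, read 8.13 to 11.3 CPM in the controls, 4.98, 2.12 and 3.75 CPM in AOM-DSS WT, and 2.82, 2.18 and 2.07 CPM in AOM-DSS Claudin-2TG. Both were highest in the controls R1 and R3 and, among the treated, in R4.

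Lists of other genes of the same cells and pathways were set beside the 8. For these lists and the marker lists below, counts with a library left out hold calls in either direction. The number of genes tested may differ in those fits. Of 19 pan-neuronal genes (L1cam the most abundant), 18 were tested against Control WT in each treated group. In AOM-DSS WT 8 were called lower and 0 higher (median log2 fold change -1.44), and in AOM-DSS Claudin-2TG 10 were called lower and 0 higher (median -1.42). Between the treated groups 17 were tested and edgeR called 0, with 0 at an unadjusted p under 0.05 and 0 in DESeq2. The first count was 1 without R1, R2, R3 or R6, and 4 without R5, whereas the second was 9 without R9 and 10 without any other library. Sncg, a synuclein of nerve fibres, fell in both treated groups against Control WT (edgeR log2 fold change -1.74, SE 0.38, adjusted p = 0.0256, and -2.35, SE 0.28, adjusted p = 0.00148), the first ending without R1, R2, R3 or R6 (0.0681 to 0.0818). Gap43, a protein of growing axons, fell too (edgeR log2 fold change -2.3, SE 0.34, adjusted p = 0.0094, and -2.34, SE 0.44, adjusted p = 0.0122), the second ending without R9 (0.0519). Syt1, a calcium sensor of synaptic vesicles, fell in AOM-DSS Claudin-2TG against Control WT (edgeR log2 fold change -2.38, SE 0.28, adjusted p = 0.00148), and was called without each library in turn. In AOM-DSS WT its edgeR log2 fold change was -1.76 (SE 0.48, adjusted p = 0.0464), a call that stood without R4 and ended without R1, R2, R3, R5 or R6 (0.0582 to 0.145). Stmn2, a tubulin-binding protein of axons, was called lower in both treated groups against Control WT (edgeR log2 fold change -1.45, SE 0.35, adjusted p = 0.0337, and -2.31, SE 0.4, adjusted p = 0.0132), the first with all libraries or without R4 and the second without each library in turn. L1cam was not called in any comparison, with edgeR log2 fold changes of -0.47, 0.12 and -0.35. L1cam is also made by epithelial cells, and the list holds genes that other cells of the colon may express.

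Among 18 genes of neuronal transmitters and peptides, 11 were tested in each comparison with the controls. In AOM-DSS WT 5 were called lower and in AOM-DSS Claudin-2TG 8 were, with none higher, and the medians of the log2 fold change were -1.59 and -2.3. Calls in AOM-DSS WT in either direction numbered 0 without R1, R2 or R3 and 3 without R6. Without R4 they numbered 8, with Tac1 among them as higher. Dbh, the enzyme that makes noradrenaline, fell in both (edgeR log2 fold change -3.18, SE 0.6, adjusted p = 0.018, and -3.59, SE 0.54, adjusted p = 0.00569), and the first call ended without R1, R2 or R3 (0.0596 to 0.0614). Penk, which encodes enkephalin, fell against both other groups in AOM-DSS Claudin-2TG (edgeR log2 fold change -1.57, SE 0.26, adjusted p = 0.00676 against Control WT, and -1.18, SE 0.29, adjusted p = 0.0379 against AOM-DSS WT), the second standing without R4 alone. Penk was the 1 gene called of 7 tested between the treated groups, where DESeq2 called 3. That count was 0 without R6, R7, R8 or R9, and 2 without R4. Calcb, a calcitonin gene-related peptide, was not called in either comparison with the controls (edgeR log2 fold change -0.55, adjusted p = 0.258, and -1.78, adjusted p = 0.0884) or between the treated groups (-1.24, adjusted p = 0.342). Tac1, the precursor of substance P, was not called (edgeR log2 fold changes 0.63, -0.9 and -0.27 in AOM-DSS WT against Control WT, between the treated groups and in AOM-DSS Claudin-2TG against Control WT). Without R4, edgeR called Tac1 higher in AOM-DSS WT against Control WT (0.87, adjusted p = 0.00926) and lower between the treated groups (-1.13, adjusted p = 0.00209).

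Of 13 further glial genes 7 were tested against the controls. In AOM-DSS WT edgeR called 0, with 1 at an unadjusted p under 0.05 and 0 in DESeq2, and the median log2 fold change was -0.45. It called 2 without R4. In AOM-DSS Claudin-2TG 4 were called lower in edgeR and 2 in DESeq2 (median -1.07), a count of 1 without R3, R8 or R9 and of 2 without R1. Ncam1, a cell adhesion protein, fell in AOM-DSS Claudin-2TG against Control WT (edgeR log2 fold change -2.2, SE 0.33, adjusted p = 0.00448), without exception over the libraries left out. Against AOM-DSS WT it was lower too (edgeR log2 fold change -1.65, SE 0.4, adjusted p = 0.0365), the only call of 6 genes tested, which stood without R4 alone. Col28a1, a collagen, fell in AOM-DSS Claudin-2TG against Control WT (edgeR log2 fold change -1.33, SE 0.36, adjusted p = 0.0425), a call that stood without R2 alone. Entpd2, an enzyme that breaks down extracellular ATP, was not called in any comparison, with edgeR log2 fold changes of -0.38, 0.21 and -0.17. The list's most abundant gene, Erbb3, was not called against Control WT (edgeR log2 fold change -0.17 in AOM-DSS WT and 0.23 in AOM-DSS Claudin-2TG, adjusted p = 0.609 and 0.543). Erbb3 summed with the others gave 358, 506 and 450 CPM in the controls, 363, 451 and 284 CPM in AOM-DSS WT, and 603, 427 and 395 CPM in AOM-DSS Claudin-2TG. That sum did not separate the groups, and Erbb3 is also expressed by epithelial cells.

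Of 12 genes listed for RET and endothelin-receptor signalling, which include the ERBB ligand Nrg1, 11 were tested in each comparison with the controls and 10 between the treated groups. In AOM-DSS WT 1 was called higher and 2 lower, in AOM-DSS Claudin-2TG 3 were called lower, and between the treated groups 2 were called lower (Edn3 and Nrg1). These counts changed with the library left out: in AOM-DSS WT to 0 without R1, R2 or R6 and 1 without R3 or R5, in AOM-DSS Claudin-2TG to 1 without R3, 2 without R1, R8 or R9 and 4 without R2, and between the treated groups to 0 without R8 or R9. Edn3, the ligand of the endothelin receptor on neural crest cells, read 1.69, 1.71 and 4.13 CPM in the controls, 5.84, 17.1 and 10.7 CPM in AOM-DSS WT, and 2.96, 2.13 and 1.92 CPM in AOM-DSS Claudin-2TG. Like Ret it was highest in R5 and R6, and here R4 too was above every control. Edn3 rose in AOM-DSS WT against Control WT (edgeR log2 fold change 2.18, SE 0.49, adjusted p = 0.028), a call that ended without R1 (0.0913), R2 (0.108), R5 (0.0693) or R6 (0.0649). It was lower in AOM-DSS Claudin-2TG than in AOM-DSS WT (edgeR log2 fold change -2.28, SE 0.4, adjusted p = 0.0134), ending without R8 (0.0785) or R9 (0.0787). Nrg1 read 2.69, 0.502 and 1.52 CPM in the controls, 1.88, 5.79 and 3.28 CPM in AOM-DSS WT, and 0.827, 0.456 and 0.369 CPM in AOM-DSS Claudin-2TG. It too was highest in R5 and R6, and was lower in AOM-DSS Claudin-2TG than in AOM-DSS WT (edgeR log2 fold change -2.74, SE 0.51, adjusted p = 0.0156), ending without R8 (0.0866) or R9 (0.0864). The RET co-receptor Gfra2 fell in AOM-DSS Claudin-2TG against Control WT (edgeR log2 fold change -1.96, SE 0.49, adjusted p = 0.0325), ending without R1 (0.0836), R3 (0.0859), R8 (0.125) or R9 (0.0667). The ligand Nrtn was not called in any comparison, with edgeR log2 fold changes of 0.14, -0.17 and -0.02. Ece1, the enzyme that activates endothelins, fell in AOM-DSS WT (edgeR log2 fold change -0.62, SE 0.14, adjusted p = 0.0286), ending without R1, R2, R3 or R6 (0.0768 to 0.102).

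Of 10 genes that receive VIP and nitric oxide signals 9 were tested against the controls. In AOM-DSS WT 1 was called lower in edgeR and 3 in DESeq2 (median log2 fold change -0.63), and in AOM-DSS Claudin-2TG 5 were called lower (median -1.03). The first count was 0 without R1, R2, R3, R5 or R6 and 4 without R4, and the second was 3 without R3, R7 or R9 and 4 without R1, R2 or R8. EdgeR called 0 of 8 between the treated groups, with 2 at an unadjusted p under 0.05 and 1 in DESeq2, and 1 without R4. The VIP receptor Vipr1 was not called in any comparison (edgeR log2 fold changes -0.45, 0.21 and -0.23), and it is also expressed by epithelium. Pde5a, which degrades the second messenger of nitric oxide, fell against Control WT in both treated groups (edgeR log2 fold change -0.63, SE 0.13, adjusted p = 0.0245, and -0.37, SE 0.1, adjusted p = 0.0356). The first of these ended without R1, R2, R3, R5 or R6 (0.0561 to 0.0975) and the second without R2, R3, R7, R8 or R9 (0.0635 to 0.148). Gucy1b1, a subunit of the nitric oxide receptor, and Adcyap1r1, a receptor of the related peptide PACAP, fell in AOM-DSS Claudin-2TG against Control WT (edgeR log2 fold change -1.65, SE 0.3, adjusted p = 0.00885, and -2.16, SE 0.4, adjusted p = 0.01), and were called without each library in turn. Prkg1, the kinase that nitric oxide activates through cyclic GMP, was not called against Control WT in either group (edgeR log2 fold change -1.88, adjusted p = 0.0727, and -1.35, adjusted p = 0.0833), and without R4 it was called in AOM-DSS WT (0.0115).

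Genes of the smooth muscle in which these neurons lie were set beside them. The 10 smooth muscle genes summed to 4190, 2110 and 3140 CPM in the controls, 3040, 1110 and 1330 CPM in AOM-DSS WT, and 1340, 1560 and 1020 CPM in AOM-DSS Claudin-2TG, with Tagln the highest in CPM (479 on average) and none at 0. R1, R3 and R4 were the highest libraries, as they were for the glial genes S100b and Gfap. In AOM-DSS WT against Control WT edgeR called 0 of the 10, and 8 without R4, while DESeq2 called 3. At an unadjusted p under 0.05 in edgeR 4 of the 10 passed, near the 32.6% of all genes tested. In AOM-DSS Claudin-2TG against Control WT 4 of the 10 were called lower in edgeR and 9 in DESeq2. The edgeR count was 8 without R2, 3 without R3 or R7, and 4 without R1, R8 or R9. All 10 were lower there with no overlap, and all 10 were at an unadjusted p under 0.05 in edgeR. Their median log2 fold change was -1.25. Of the 10, edgeR called 0 between the treated groups, with 0 at an unadjusted p under 0.05 and 0 in DESeq2, and 1 without R4. The part of muscle content in the lower neuronal and glial levels was not tested.

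Per 1000 CPM of the smooth muscle sum, the 3 glial genes gave 1.73, 1.72 and 1.64 CPM in the controls, 1.3, 1.04 and 0.955 CPM in AOM-DSS WT, and 0.823, 1.13 and 0.871 CPM in AOM-DSS Claudin-2TG. On that scale the controls were nearly equal, and the treated libraries were all below them. The 4 neuronal genes without Ret gave 20.7, 24.3 and 23.9 CPM in the controls, 11.6, 8.44 and 17.0 CPM in AOM-DSS WT, and 19.4, 7.26 and 13.1 CPM in AOM-DSS Claudin-2TG, again with every treated library below the controls, R7 closest. Vip was the most abundant gene of that sum (18.3 CPM on average), and the sum was not taken without Vip. The wider lists were each dominated by a few genes, so their ratios are given with and without them, a choice made after their values were seen. On the same scale, the pan-neuronal sum differed from the controls in log2 terms by -0.06 in AOM-DSS WT and 0.34 in AOM-DSS Claudin-2TG, and without L1cam (56.5% of the sum) by -0.61, with no overlap, and -0.4. Transmitters and peptides gave 0.37 and -0.08, and without Tac1 (44.4% of the sum) -0.55 and -0.89, the last with no overlap. The further glial genes gave 0.61 and 1.34, and 0.39 and 0.96 without Erbb3, both transgenic values with no overlap. Without Erbb3, Mbp and Entpd2, which made up 98.2% of that sum, the remaining 10 genes gave 0.2 and -0.34 and overlapped the controls in both groups, so the rise was not shared by their sum. In log2 terms the glial ratio differed from the controls by -0.64 in AOM-DSS WT and -0.86 in AOM-DSS Claudin-2TG, and the neuronal ratio without Ret by -0.95 and -0.9. Leaving Ret out was chosen after its values were seen. With Ret in the sum the neuronal ratio read 23.2, 27.8 and 27.8 CPM in the controls, 13.9, 36.5 and 38.9 CPM in AOM-DSS WT, and 21.8, 9.17 and 15.6 CPM in AOM-DSS Claudin-2TG. Then AOM-DSS WT spread to both sides of the controls, with a log2 difference of 0.05. Gene by gene, the log2 difference of this ratio (AOM-DSS WT, then AOM-DSS Claudin-2TG, against Control WT) was -1.4 and -1.36 for Vip, -1.31 and -0.91 for Nos1, -0.91 and -0.48 for Elavl4, -0.34 and -0.38 for Uchl1, 1.8 and -0.51 for Ret, -0.94 and -0.99 for Gfap, -0.92 and -0.72 for Sox10, and -0.05 and -0.7 for S100b. Uchl1, Ret and S100b overlapped the controls in AOM-DSS WT. In AOM-DSS Claudin-2TG Elavl4, Uchl1, Ret and Nos1 each overlapped them, and of the neuronal genes Vip alone did not.

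**Figure D3:**
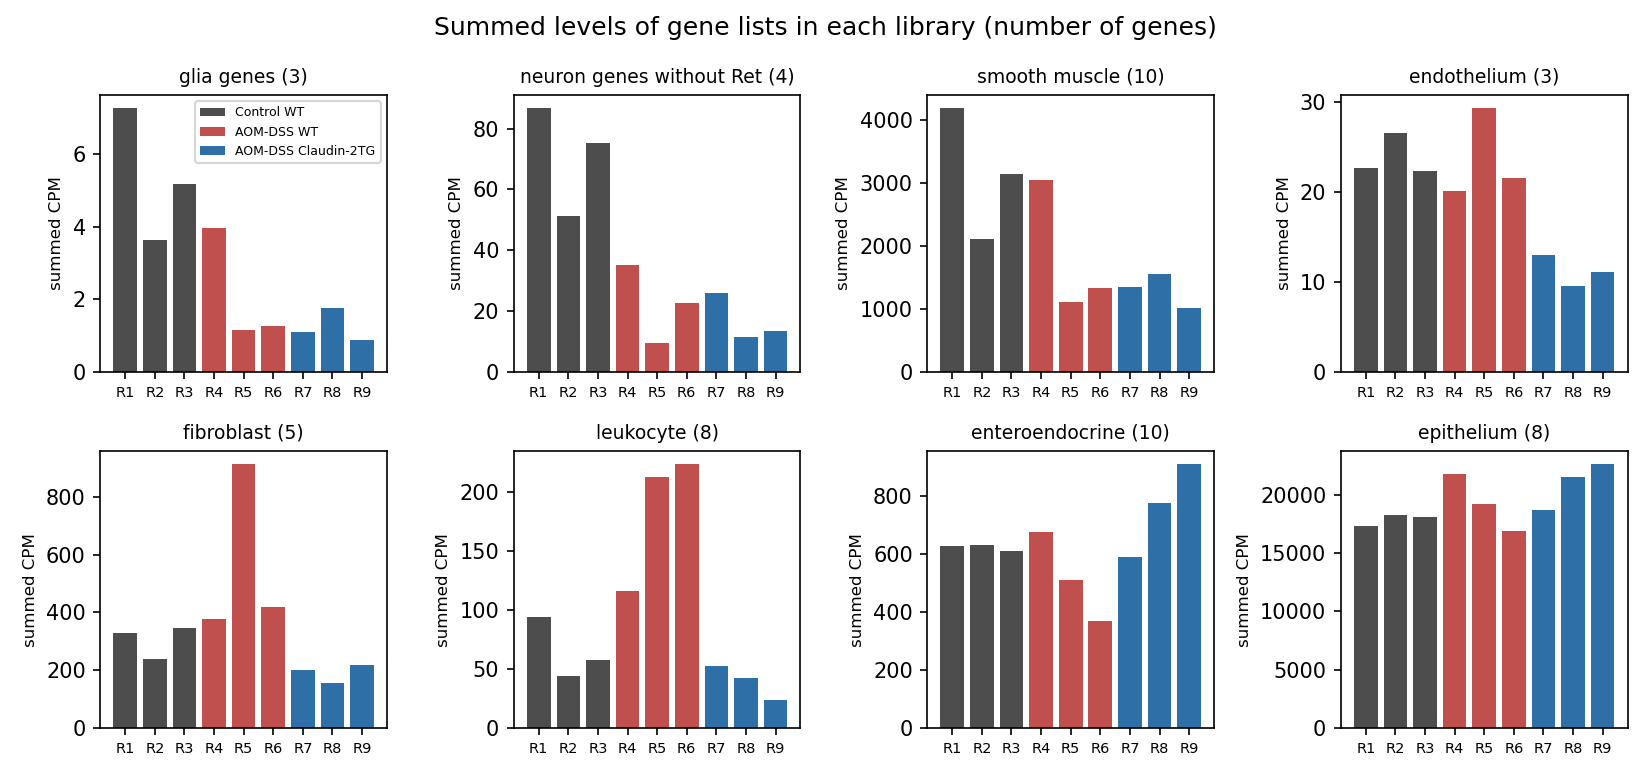
Summed level in CPM (vertical axes, starting at 0) of the glial genes, the neuronal genes without Ret and 6 lists of marker genes of other cells, as 1 bar for each of the 9 libraries coloured by group. Glial, neuronal and smooth muscle sums are highest in R1 and R3, while leukocyte sums are highest in R5 and R6.

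Markers of other cells followed different courses. The 8 leukocyte genes (Lyz2 the highest in CPM, none at 0 in all libraries) summed to 93.5, 43.9 and 57.1 CPM in the controls, 116, 212 and 223 CPM in AOM-DSS WT, and 52.7, 41.9 and 23.7 CPM in AOM-DSS Claudin-2TG. Like Ret, Edn3 and Nrg1, they were highest in R5 and R6. Of the 8, edgeR called 5 higher in AOM-DSS WT against Control WT, a count of 0 without R2 or R3, 1 without R5 or R6 and 2 without R1. In AOM-DSS Claudin-2TG against AOM-DSS WT edgeR called 5 of 7 tested lower. That count was 0 without R8, 1 without R9, 3 without R5 or R6, and 8 without R4, where all 8 were tested. The 5 fibroblast genes (Col3a1 the highest in CPM, none at 0) summed to 328, 237 and 346 CPM in the controls, 377, 912 and 418 CPM in AOM-DSS WT, and 200, 154 and 217 CPM in AOM-DSS Claudin-2TG, with R5 far above the others. In AOM-DSS Claudin-2TG against AOM-DSS WT edgeR called 1 of the 5 lower, 0 without R5, R6, R8 or R9 and 3 without R4, and DESeq2 called 5. The part of leukocytes and fibroblasts in the level of Ret was not tested.

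The 3 endothelial genes (Pecam1 the highest in CPM, none at 0) summed to 22.7, 26.5 and 22.3 CPM in the controls, 20.1, 29.3 and 21.5 CPM in AOM-DSS WT, and 13.0, 9.53 and 11.1 CPM in AOM-DSS Claudin-2TG. They were low in the transgenic group only. All 3 were called lower there against Control WT, a count of 1 without R2 or R8 and 2 without any other library, and 2 of 3 against AOM-DSS WT, a count of 0 without R5, R7, R8 or R9 and 1 without R6. Their part in the lower levels of the 8 genes in that group was not tested. The 8 epithelial genes (Lgals4 the highest in CPM) summed to 17300, 18300 and 18100 CPM in the controls, 21800, 19200 and 16900 CPM in AOM-DSS WT, and 18700, 21500 and 22600 CPM in AOM-DSS Claudin-2TG. These sums are not corrected for gene length. EdgeR called 1 of the 8 higher in AOM-DSS Claudin-2TG against Control WT, 0 without R1, R2, R3, R8 or R9 and 2 without R7. The 10 enteroendocrine genes (Pyy the highest in CPM), which include Sst, summed to 626, 632 and 611 CPM in the controls, 676, 511 and 367 CPM in AOM-DSS WT, and 589, 776 and 908 CPM in AOM-DSS Claudin-2TG, and so did not follow Sst. Of these 10, edgeR called 1 higher and 1 lower in AOM-DSS WT against Control WT (0 in all without R1, R2 or R3, and 1 without R5 or R6), 2 higher in AOM-DSS Claudin-2TG against AOM-DSS WT (0 without R5, R6, R8 or R9, and 1 without R7) and 1 lower in AOM-DSS Claudin-2TG against Control WT (3 called without R7).

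The other 4 lists of marker genes held 3 to 6 genes each. The 3 genes of interstitial cells of Cajal (Ano1 the highest in CPM) summed to 303, 412 and 312 CPM in the controls, 295, 393 and 221 CPM in AOM-DSS WT, and 368, 311 and 258 CPM in AOM-DSS Claudin-2TG. The sums overlapped throughout, and Ano1 made up most of them (284 CPM on average). Against Control WT all 3 genes were below 0 in AOM-DSS WT (median log2 fold change -0.82) and in AOM-DSS Claudin-2TG (-0.35). In each of these comparisons 1 of the 3 genes was lower with no overlap, against 20.3% and 16.3% of all genes tested. EdgeR called 1 of them lower in AOM-DSS WT against Control WT, also without each library in turn, 1 higher between the treated groups, 0 without R5, R6, R7, R8 or R9, and 1 lower in AOM-DSS Claudin-2TG against Control WT, 0 without R1, R3, R8 or R9. The 3 mesothelial genes (Msln the highest in CPM) summed to 11.7, 10.0 and 5.56 CPM in the controls, 11.8, 20.6 and 30.3 CPM in AOM-DSS WT, and 0.276, 7.5 and 4.65 CPM in AOM-DSS Claudin-2TG. R6 was highest and R7 almost empty, a span that the 8 genes did not show. The high sum in R6 was that of Msln (30.0 CPM), and the other 2 genes held at most 0.268 CPM there. In AOM-DSS WT against Control WT 1 of the 3 genes was above 0 and 2 were below, with a median log2 fold change of -1.04. EdgeR called 1 of them higher in AOM-DSS WT against Control WT, 0 without R2 or R3 and 2 without R5, and 1 of 2 tested lower between the treated groups, 0 without R5, R6, R8 or R9. The 6 skeletal muscle genes (Acta1 the highest in CPM, Myh4 at 0 in all libraries) summed to 7.46 CPM in R9 and to at most 18.7 CPM, in R7. The 4 adipocyte genes (Cidec the highest in CPM) summed to 2.34 CPM in R4 and to at most 29.9 CPM, in R2. For skeletal muscle edgeR called 1 gene higher in AOM-DSS WT against Control WT, 0 without R2 or R3 and 2 without R4. For adipocytes edgeR called 0 in the 3 comparisons, with 1 at an unadjusted p under 0.05 and 1 in DESeq2 in AOM-DSS WT against Control WT and 0 by either count in the others.

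Promoter sequences were looked up because 7 of the 8 genes moved together across libraries. The promoter table used, of RefSeq entries on GRCm38.p6, matched 6 of the 8 (S100b, Gfap, Elavl4, Uchl1, Nos1 and Vip) with 9 start sites, and promoters of Sox10 and Ret were not analysed here. The 250 bases before each start were searched on both strands for the half-site of the cAMP response element, TGACG or CGTCA, for the E-box CAGCTG, and for the SOX core AACAAT or ATTGTT. The half-site was found in 5 of the 9 promoters, belonging to Elavl4, Nos1 and Vip, and in 17.8% of the 32851 promoters in the table. CAGCTG was found in 2 of the 9, both of Elavl4, and in 13.0% of all promoters, and the SOX core in 1 of the 9, also of Elavl4, and in 9.42% of all. A pair of Elavl4 starts lie so close that their windows share 1 half-site and 1 CAGCTG, so the half-site count rests on 4 sites and the CAGCTG count on 1. The 110 bases before a start of Vip (chr10:5639108-5639217, plus strand) and of Elavl4 (chr4:110351912-110352021, minus strand) are shown, 5′ to 3′, because they place the commonest of these motifs in a transmitter gene and in a general neuronal gene. Capitals mark the half-site, 79 to 75 bases before the start of Vip and 57 to 53 bases before that of Elavl4, where it reads on the other strand.
Vip: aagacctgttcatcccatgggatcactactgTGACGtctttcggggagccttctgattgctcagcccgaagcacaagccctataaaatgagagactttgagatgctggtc
Elavl4: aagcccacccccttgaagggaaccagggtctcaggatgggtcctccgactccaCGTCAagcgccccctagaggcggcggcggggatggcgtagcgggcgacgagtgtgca
These matches are descriptions of the letters in this window only.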

How the data were processed

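RNA-Seq libraries from colon were made by the authors from 1.3 ug of total RNA and sequenced on a NovaSeq6000. The authors deposited raw counts per gene and lane, made with featureCounts on GRCm38; the labels name HISAT2 for alignment and the study's methods name TopHat2, and neither gives a version. Strand was not stated. The 18 count columns were summed to 9 libraries, and identifiers of 47224 of the 47729 genes matched GENCODE M21. Pairs of groups were compared by edgeR 4.0.16 (limma 3.58.1, R 4.3.3) with TMM factors, filterByExpr (minimum count 10, minimum total 15), its quasi-likelihood test (robust, two-sided), and p-values were adjusted by Benjamini-Hochberg across every gene tested. The procedure was tested on simulated data, whose outcome is not given here. Levels are CPM with TMM factors over 9 libraries, or CPM per kb of the table's exon length; permutation tests used log2 of CPM plus 0.5. Alternatives were DESeq2 1.42.0, library totals or upper-quartile scaling, no filter on low counts, at least 10 counts in every library, all 9 libraries in 1 fit, each lane alone, and leaving out each library; for the ratio to smooth muscle, leaving out Tagln and, chosen after seeing the data, leaving out Ret, each library, and the genes of highest CPM in the wider lists (1 each, and 3 for glia). Tables, figures and permutation tests used pandas 2.3.3, matplotlib 3.10.9 and numpy 2.4.6 under Python 3.11.15, with scipy 1.17.1 loaded.

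The members and lists were chosen with earlier results of these data known, and 1 gene first placed on the pan-neuronal list was not used here. Genes named were the 8 members; from each of the 5 pathway lists (pan-neuronal, transmitter and peptide, glia, RET and endothelin-receptor signalling, VIP and nitric oxide receivers) the 2 with the highest CPM per kb and the 1 with the largest absolute log2 fold change in each comparison; the gene with the highest CPM in each of the 10 marker lists (smooth muscle, interstitial cell of Cajal, enteroendocrine, epithelium, leukocyte, mesothelium, skeletal muscle, adipocyte, fibroblast, endothelium); and the 5 genes with the highest Pearson r to the mean z-score of the members' log2 CPM.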

Additional observations from a re-analysis of the deposited data

How the results depend on the processing

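Of the log2 fold changes of the 8 genes, 86 values under alternatives kept direction and side of the threshold in AOM-DSS Claudin-2TG against Control WT and 21 lost the call; in AOM-DSS WT against Control WT 89 kept both, 10 gained a call and 9 lost it; between the treated groups 67 kept both, 5 lost the call and 9 changed sign. The cause was not tested for any change. Called genes among the 8 in AOM-DSS WT against Control WT numbered 2, 4 with DESeq2 and 0 to 7 leaving out 1 library; between the treated groups 1, 0 with no filter on low counts and 0 to 1 leaving out 1 library; in AOM-DSS Claudin-2TG against Control WT 8, 5 with at least 10 counts in every library (where 5 were tested), 2 with all 9 libraries in 1 fit, and 5 to 7 leaving out 1 library.

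Over all genes tested, AOM-DSS WT against Control WT gave 2310 calls, and 135 to 4080 leaving out 1 library (631, 135, 404, 4080, 1245 and 1062 without R1 to R6 in turn). Between the treated groups there were 1421, 2183 with DESeq2, 908 with at least 10 counts in every library, 2136 with all 9 libraries, and 58 to 2894 leaving out 1 library (2894, 555, 805, 460, 58 and 108 without R4 to R9 in turn). In AOM-DSS Claudin-2TG against Control WT there were 1501, 2567 with no filter, 445 with all 9 libraries, and 525 to 1383 leaving out 1 library (958 without R1, 525 without R3, 615 without R8 and 813 without R9). The ratio of neuronal genes to smooth muscle with Ret was 0.05 in AOM-DSS WT against Control WT (-0.22 to 0.53 leaving out 1 library) and -0.88 between the treated groups (-1.37 to -0.55 leaving out 1 library). Without Ret both changed sign, to -0.95 and 0.05. Ratios of wider lists to smooth muscle that changed sign, under a choice made after seeing the data, were the pan-neuronal list without L1cam in AOM-DSS Claudin-2TG against Control WT (0.34 to -0.4), transmitters and peptides without Tac1 in AOM-DSS WT against Control WT (0.37 to -0.55), and the glia list without Erbb3, Mbp and Entpd2 in AOM-DSS Claudin-2TG against Control WT (1.34 to -0.34) and against AOM-DSS WT (0.73 to -0.54).

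Log2 fold changes that changed sign were all uncalled. Between the treated groups, with lane 2 alone, they were Elavl4 0.09, Nos1 0.34 and Nrtn 0.24, and with no filter Gap43 0.0. Leaving out 1 library gave Gfap -1.11 to 0.34, Elavl4 -0.55 to 0.43, Nos1 -0.48 to 0.42, Vip -1.32 to 0.17, Gap43 -0.74 to 0.39, Col28a1 -0.62 to 0.17 and Nrtn -0.44 to 0.37. In AOM-DSS WT against Control WT Nrtn was -0.03 with lane 2 and -0.39 to 0.47 leaving out 1 library. In AOM-DSS Claudin-2TG against Control WT Nrtn was 0.21 with lane 2 and -0.22 to 0.32, Edn3 0.06 with lane 1 and -0.32 to 0.46, and Erbb3 -0.04 to 0.37.

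Depth limits S100b, Sox10 and Gfap most, with 3 to 18 counts in each AOM-DSS Claudin-2TG library, and alternatives whose filter removed a gene gave no value for it. No paired analysis was possible because the library numbers are not shared between groups. With 3 libraries a group, the loss of 1 leaves 2 against 3.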
